A study of Homo sapiens with 6 samples.

Results

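Laminin chains were described in RNA-sequencing libraries of the human glioblastoma line U251 with and without targeting of NUAK2, a kinase of the AMPK-related family. The 9 genes were LAMA1, LAMA2, LAMA3, LAMA4, LAMA5, LAMB1, LAMB2, LAMC1 and LAMC3, found among the 28395 genes of the count table by matching NCBI gene identifiers to these symbols. LAMB3 and LAMB4, further laminin beta chains in the table, are given beside them to complete the beta chains. The comparison was of 3 libraries of unedited cells (WT) with 3 libraries of cells made by CRISPR-Cas9 targeting of NUAK2 (NUAK2-CR), both grown from the U251MG line, and no drug or further allele is given for either group. According to the study's methods, guide RNAs were delivered on lentiviral vectors with fluorescent reporters, reporter-positive cells were sorted into single wells, and the resulting clones were screened by PCR. The labels tie no library to a clone, so the 3 NUAK2-CR libraries may hold 1 clone or several, and nothing in them says that libraries of a group came from separate cultures. All p-values therefore measure only the spread between these libraries, which may be technical.

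Laminins are large secreted glycoproteins of basement membranes, each a trimer of an alpha, a beta and a gamma chain that join through a long coiled coil, and a trimer is named by the numbers of its chains. The alpha chain carries the globular domains that integrins and dystroglycan bind, whereas the short arms of the chains let laminins polymerise. In the brain, laminins line blood vessels and the pial surface, and glioma cells migrate along both. Bulk libraries cannot tell fewer cells of a type from less RNA per cell, and they measure transcripts, not secreted trimers.

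Library totals ranged from 29648445 to 55574081 counts, and up to 3 counts were treated as a floor, which accounts for counting error only. NUAK2 had 1926, 1457 and 1580 normalised counts in WT libraries and 799, 961 and 849 in NUAK2-CR libraries, counts here being scaled to a common library size, which gave a log2 fold change of -0.93 ± 0.11 (SE). Of 7 markers of glial cells and glioblastoma lines, all 7 were measured and all 7 were lower in NUAK2-CR, where 28.2% of all tested genes were lower. They included the astrocyte filament gene GFAP, with means of 88323 and 14984, S100B, with 157 and 25.4, and NES, with 25940 and 8824. The summed level of all 7 was 323988 to 359450 normalised counts in WT and 137862 to 144244 in NUAK2-CR. The 6 endothelial markers summed to 45.1 to 62.7 and to 90.0 to 118, the 4 immune markers, chiefly CD68, to 658 to 741 and to 204 to 250.8, and the 4 Schwann and muscle markers to 9.30 to 16.4 and to 3.81 to 9.65. The 6 epithelial markers summed to 5298 to 6096 and to 6622 to 7189, nearly all of it from the keratin genes KRT8, which was lower (-0.56 on the log2 scale), and KRT18, which was higher (0.64). The defining immune genes PTPRC and AIF1 and the Schwann and muscle genes PMP2 and MYOD1 were at or under the floor in every library, and the epithelial genes EPCAM, CDH1 and KRT14 had at most 6 raw counts in any library. Of the endothelial genes, PECAM1 (2, 0 and 0 raw counts in WT against 12, 14 and 14 in NUAK2-CR) and VWF (38, 15 and 12 against 53, 46 and 48) were higher, TEK (33, 29 and 16 against 14, 13 and 0) and CDH5 (7, 14 and 4 against 6, 10 and 18) were not called, and CLDN5 (5, 3 and 8 against 0, 2 and 0) and ERG (at most 8) did not pass the filter. The part of these shifts in the laminin results below was not tested.

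In GRCh38, the build the labels name as hg38, the alpha chain genes were LAMA1 at chr18:6941742-7117797, LAMA2 at chr6:128883138-129516566, LAMA3 at chr18:23689453-23955066, LAMA4 at chr6:112107931-112254985 and LAMA5 at chr20:62309065-62367312. The beta chain genes were LAMB1 at chr7:107923799-108003161 and LAMB2 at chr3:49121114-49133050, and the gamma chain genes were LAMC1 at chr1:183023420-183145592 and LAMC3 at chr9:131009174-131094473. Positions are those of RefSeq genes. Counts were given per gene, and the MANE Select transcripts of these 9 genes had from 28 exons (LAMC1 and LAMC3) to 80 exons (LAMA5).

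All 9 chains passed the filter on low counts. In NUAK2-CR, LAMA3, LAMA4, LAMA5 and LAMB1 were higher and LAMA1, LAMC1 and LAMC3 were lower at an adjusted p under 0.05, and LAMA2 and LAMB2 did not pass. Thus 7 of 9 chains were called, where 54.5% of all 14873 tested genes were called, 26.3% as higher and 28.2% as lower. At the study's threshold for DEGs, an absolute log2 fold change over 2, LAMA3 and LAMC3 passed, against 4.72% of all genes. Normalised counts of the groups did not overlap for 7 of 9 chains and for 61.4% of all genes. The median log2 fold change was 0.32 over the 9 chains and -0.01 over all tested genes.

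**Figure D1:**
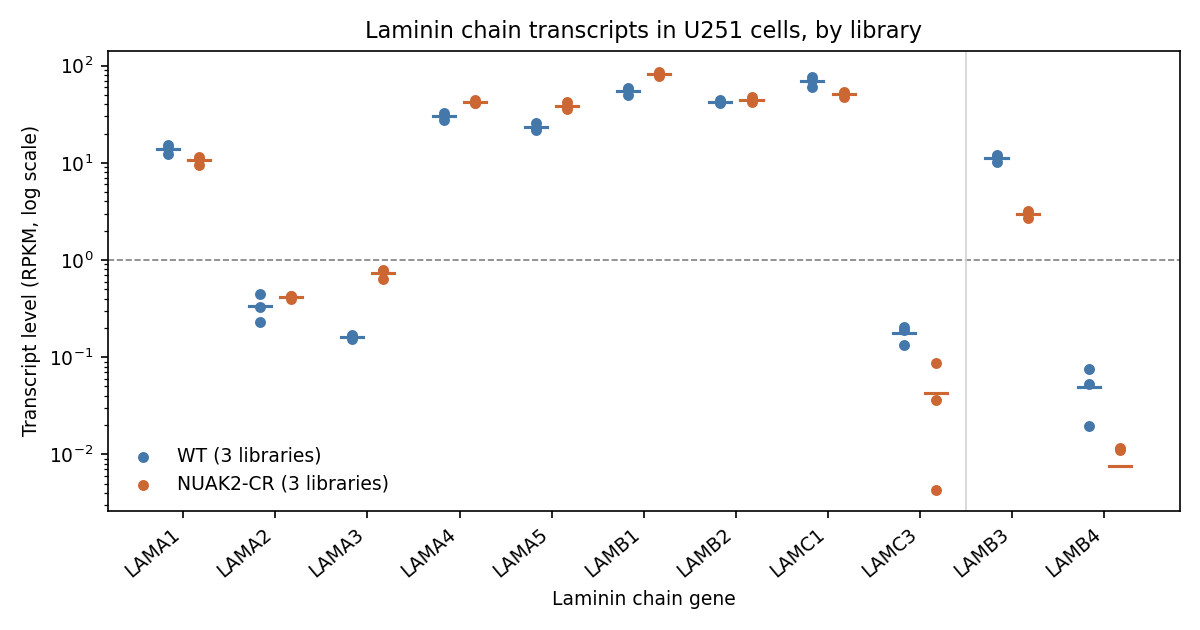
Transcript level of each laminin chain in RPKM on a log axis, 1 point per library and a bar at the mean of 3 libraries, with WT in blue and NUAK2-CR in orange; the dashed line marks 1 RPKM, and chains right of the grey line are LAMB3 and LAMB4. On the long LAMA3 transcript length LAMA3 was lower than LAMA2 in WT and higher than it in NUAK2-CR, while the groups overlap for LAMA2 and LAMB2; 1 NUAK2-CR library with no LAMB4 read is not drawn.

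Among the alpha chains, LAMA3, which forms the epithelial adhesion laminins, had the largest rise by fold. It had 65.8, 67.5 and 61.3 normalised counts in WT libraries and 310, 317 and 254 in NUAK2-CR libraries. Every NUAK2-CR library lay far above every WT library, and the log2 fold change was 2.17 ± 0.17 (SE, adjusted p = 5.55e-07). Even so LAMA3 was a minor transcript, at 0.162 ± 0.008 RPKM (SD, n = 3) in WT and 0.734 ± 0.087 in NUAK2-CR on the length of its long transcript. RPKM scales counts to transcript length and to library size, here with TMM factors. On the length of 5618 bases of the short transcript, which starts inside the gene, the means were 0.308 and 1.39 RPKM. The counts are per gene and do not tell these transcripts apart.

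LAMA5, the alpha chain of most adult basement membranes, had 10938, 9893 and 9315 normalised counts in WT against 16462, 18039 and 15280 in NUAK2-CR. The groups were apart, and the log2 fold change was 0.72 ± 0.08 (SE, adjusted p = 1.20e-05). LAMA4, an alpha chain of vessel walls with a short amino-terminal arm, had 7554, 8931 and 8267 in WT against 11912, 11313 and 11215 in NUAK2-CR. It too was higher in each NUAK2-CR library than in any WT library, with a log2 fold change of 0.48 ± 0.07 (SE, adjusted p = 1.56e-04).

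LAMA1, the alpha chain of the early embryonic laminin, moved the other way. It had 4476, 5582 and 5142 normalised counts in WT against 4146, 3981 and 3422 in NUAK2-CR. The highest NUAK2-CR library lay just under the lowest WT library, and the log2 fold change was -0.40 ± 0.09 (SE, adjusted p = 0.00339). LAMA2, the chain of muscle and Schwann cell laminin, had 83.7, 161 and 120 in WT against 154, 156 and 144 in NUAK2-CR. The WT libraries spread around the NUAK2-CR values, the log2 fold change of 0.32 ± 0.23 did not pass (adjusted p = 0.268), and its 95% interval ran from -0.19 to 0.83.

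Of the beta chains, LAMB1, the common partner in embryonic laminins, had 10455, 12527 and 12252 normalised counts in WT against 18392, 17266 and 16443 in NUAK2-CR. All 3 NUAK2-CR libraries were above all 3 WT libraries, with a log2 fold change of 0.56 ± 0.08 (SE, adjusted p = 8.21e-05). LAMB2, the beta chain of synaptic and kidney basement membranes, had 8775, 9367 and 9018 in WT against 10181, 9531 and 8941 in NUAK2-CR. Its groups overlapped, the adjusted p was 0.372, and the 95% interval of the log2 fold change was -0.07 to 0.23.

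Of the gamma chains, LAMC1, the gamma chain of most laminins, had 18085, 22647 and 21113 normalised counts in WT against 15940, 15617 and 14236 in NUAK2-CR. Each NUAK2-CR library was under each WT library, and the log2 fold change was -0.43 ± 0.09 (SE, adjusted p = 0.00102). The 20 nearest tested genes on chromosome 1 had a median log2 fold change of -0.57, and relative to that median LAMC1 was at 0.14. LAMC3, a rare gamma chain of brain and retina, had raw counts of 80, 39 and 53 in WT against 8, 1 and 22 in NUAK2-CR. These low counts did not overlap, and the log2 fold change was -2.02 ± 0.57 (SE, adjusted p = 0.00934). The estimate was -3.11 without NUAK2-CR replicate 3 and -1.49 without NUAK2-CR replicate 2, and LAMC3 missed the DEG threshold on leaving out replicate 1 or 3 of WT, or replicate 1 or 2 of NUAK2-CR.

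LAMB3, a beta chain of epithelial laminins, fell. It had 1548, 1751 and 1823 normalised counts in WT against 409, 480 and 459 in NUAK2-CR, so that the log2 fold change was -1.92 ± 0.10 (SE, adjusted p = 9.86e-09). The groups were apart, in the direction opposite to LAMA3. LAMB4, a chain with no assigned trimer, had raw counts of 25, 12 and 4 in WT against 2, 2 and 0 in NUAK2-CR and did not pass the filter.

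**Figure D2:**
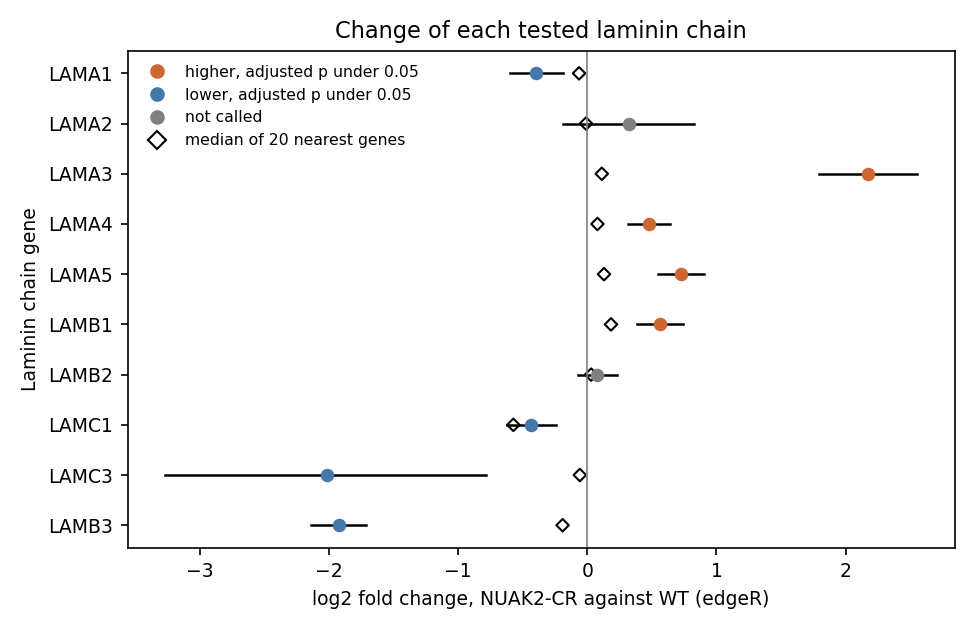
Log2 fold change of NUAK2-CR against WT for each tested laminin chain (edgeR, 3 libraries a group), with bars for the 95% interval and open diamonds for the median of the 20 tested genes nearest on the chromosome. LAMC1 at -0.43 lies beside its diamond at -0.57, whereas LAMA3 at 2.17 and LAMB3 at -1.92 lie far from theirs.

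Promoter sequences are shown for some of the chains that moved, so that their composition can be read beside the changes. LAMA3 and LAMB3 moved in opposite directions, and LAMA5 and LAMB1 rose, by 0.72 and 0.56 on the log2 scale. LAMA4 rose by 0.48, nearer to LAMB1, and its stretch is not printed. Each stretch is the 250 bases before a transcription start in RefSeq (GRCh38.p14), printed 5' to 3' on the strand of the gene. The capitals mark TGANTCA, the AP-1 motif, CATTCC, the TEAD motif, and GGGCGG, the SP/KLF motif, on either strand, so that GGGCGG also appears as CCGCCC. The LAMA3 stretch (chr18:23872770-23873019, plus strand) precedes the short transcript, and the LAMB3 stretch (chr1:209651375-209651624, minus strand) is that of 1 of its 3 listed starts. It is the only one of the 3 with an AP-1 motif and lies inside the gene, and the stretch before the first start, chr1:209652426-209652675, is not printed. The LAMA5 stretch is chr20:62367313-62367562 and the LAMB1 stretch is chr7:108003162-108003411, both on the minus strand.
LAMA3: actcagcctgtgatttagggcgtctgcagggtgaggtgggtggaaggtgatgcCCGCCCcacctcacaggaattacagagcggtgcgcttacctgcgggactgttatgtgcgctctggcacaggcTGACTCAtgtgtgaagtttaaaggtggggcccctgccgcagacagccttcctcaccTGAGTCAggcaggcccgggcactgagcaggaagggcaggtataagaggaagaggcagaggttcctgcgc
LAMB3: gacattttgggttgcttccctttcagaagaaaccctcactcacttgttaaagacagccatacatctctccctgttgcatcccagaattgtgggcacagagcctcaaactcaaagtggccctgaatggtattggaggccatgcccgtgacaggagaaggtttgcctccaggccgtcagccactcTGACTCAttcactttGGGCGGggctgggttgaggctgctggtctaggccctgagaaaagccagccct
LAMA5: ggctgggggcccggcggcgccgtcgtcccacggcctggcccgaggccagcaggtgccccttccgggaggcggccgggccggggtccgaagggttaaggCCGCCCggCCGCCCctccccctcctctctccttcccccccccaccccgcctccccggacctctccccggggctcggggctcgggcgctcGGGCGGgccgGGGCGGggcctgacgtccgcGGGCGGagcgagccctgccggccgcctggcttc
LAMB1: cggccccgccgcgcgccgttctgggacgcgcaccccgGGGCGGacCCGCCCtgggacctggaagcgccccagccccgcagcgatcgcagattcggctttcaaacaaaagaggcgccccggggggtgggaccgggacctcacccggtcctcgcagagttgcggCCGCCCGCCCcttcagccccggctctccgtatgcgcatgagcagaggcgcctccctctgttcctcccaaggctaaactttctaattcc
LAMA3 held 2 AP-1 motifs, at 125 and 69 bases before the start, and LAMB3 held 1 at 67 bases before this start and none at its other starts. Within windows of 300 bases, which add the 50 bases after the start, 7.71% of the 35116 RefSeq promoters held an AP-1 motif, 14.0% a TEAD motif and 45.0% an SP/KLF motif. Of the chains that were higher, LAMA5 held 5 SP/KLF motifs, LAMB1 held 4, LAMA3 held 1 and LAMA4 held none of these letters. The LAMA4 window, chr6:112254518-112254817 on the minus strand, lies inside the gene, so the bases before the gene were not matched. LAMC1, which was lower, held 3, LAMB3, also lower, held 1 at each listed start, and LAMB2, not called, held 1. The SP/KLF motif holds only G and C. These bases made up 82.7% of the LAMA5 window, 79.0% of that of LAMC1 and 71.0% of that of LAMB1. They made up 61.7% for LAMA3, 58.7% for LAMB2 and 51.3% for LAMA4. LAMA2 held 1 TEAD motif at 167 bases before the start. A match is a description of letters and not a binding site. Windows were matched for 9 of the 11 chains, and LAMA1 and LAMC3 had no entry.

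Per length, the order of transcript levels in WT was LAMC1 at 69.3 ± 7.8 RPKM (SD, n = 3), LAMB1 at 55.4 ± 5.3, LAMB2 at 42.4 ± 1.4, LAMA4 at 30.4 ± 2.5, LAMA5 at 23.4 ± 1.9, LAMA1 at 14.0 ± 1.5 and LAMB3 at 11.3 ± 0.9. LAMA2 at 0.335, LAMC3 at 0.176, LAMA3 at 0.162 and LAMB4 at 0.049 RPKM followed. Neighbours in this order did not overlap, except LAMC3 and LAMA3. In NUAK2-CR, LAMB1 came first at 81.9 ± 4.6 RPKM, ahead of LAMC1 at 51.3 ± 3.0. Both orders rest on MANE Select transcript lengths, of which 4827 of 7929 bases are coding in LAMC1 and 5358 of 5650 in LAMB1. Coding lengths would therefore raise LAMC1 more than LAMB1, and their NUAK2-CR libraries would then overlap. The size of the lead of LAMB1 in NUAK2-CR thus rests on the length used. Coding lengths also put LAMA4, at 55.9 RPKM in NUAK2-CR, above LAMB2, at 47.2. LAMB2 at 44.7 ± 2.9 overlapped LAMA4 at 42.3 ± 1.4, which overlapped LAMA5 at 38.7 ± 3.2. LAMA1 at 10.6 ± 1.0 and LAMB3 at 2.98 ± 0.24 followed. The lowest were LAMA3 at 0.734, LAMA2 at 0.415, LAMC3 at 0.042 and LAMB4 at 0.008 RPKM, the last pair overlapping. On the long transcript length LAMA3 thus stood under LAMA2 in WT and above it in NUAK2-CR, whereas on the short length its WT libraries, at 0.291 to 0.320 RPKM, lay within the LAMA2 range of 0.230 to 0.443.

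Since a trimer takes 1 chain of each kind, the level of each kind was compared. Summed alpha chains were 68.4 ± 3.2 RPKM (SD, n = 3) in WT and 92.8 ± 4.7 in NUAK2-CR, summed beta chains 109 ± 7 and 130 ± 7, and the gamma chains LAMC1 and LAMC3 together 69.5 ± 7.8 and 51.3 ± 3.0. The alpha and beta sums were higher and this gamma sum lower in each NUAK2-CR library than in each WT library, and the ratio of summed alpha to these gamma chains was 0.990 ± 0.082 in WT and 1.81 ± 0.03 in NUAK2-CR. With 3 libraries against 3, a two-sided exact permutation test cannot give a p under 0.10, and it gave 0.10 for each of the 3 ratios between the sums. LAMC1 plus LAMC3 to summed beta was 0.635 in WT and 0.396 in NUAK2-CR, and alpha to beta was 0.627 and 0.717. The sizes of these sums and ratios rest on MANE Select transcript lengths. Coding lengths would raise the gamma sum most, since 4827 of the 7929 bases of LAMC1 are coding, so the ratios do not measure how many chains of each kind there are.

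Within the alpha chains, LAMA1 made up 20.5% ± 1.5 (SD, n = 3) of the RPKM in WT and 11.4% ± 0.6 in NUAK2-CR, and LAMA5 34.4% ± 3.7 and 41.7% ± 1.9. LAMA4 held 44.5% and 45.7%, with overlapping libraries, and LAMA3 0.237% and 0.789%. Within the beta chains, LAMB1 held 50.7% ± 1.5 and 63.2% ± 0.2, LAMB2 38.9% and 34.5%, and LAMB3 10.4% and 2.31%. Of 9 shares, 7 reached the smallest two-sided exact permutation p of 0.10, with an adjusted value of 0.129, so that none could pass 0.05. The 7 include LAMB4, at 0.046% and 0.006%, which did not pass the filter on low counts. Shares within a kind depend on each other, so they are not separate results. LAMA4 at p = 0.50 and LAMA2 at p = 0.70 in the same exact test did not reach it.

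**Figure D3:**
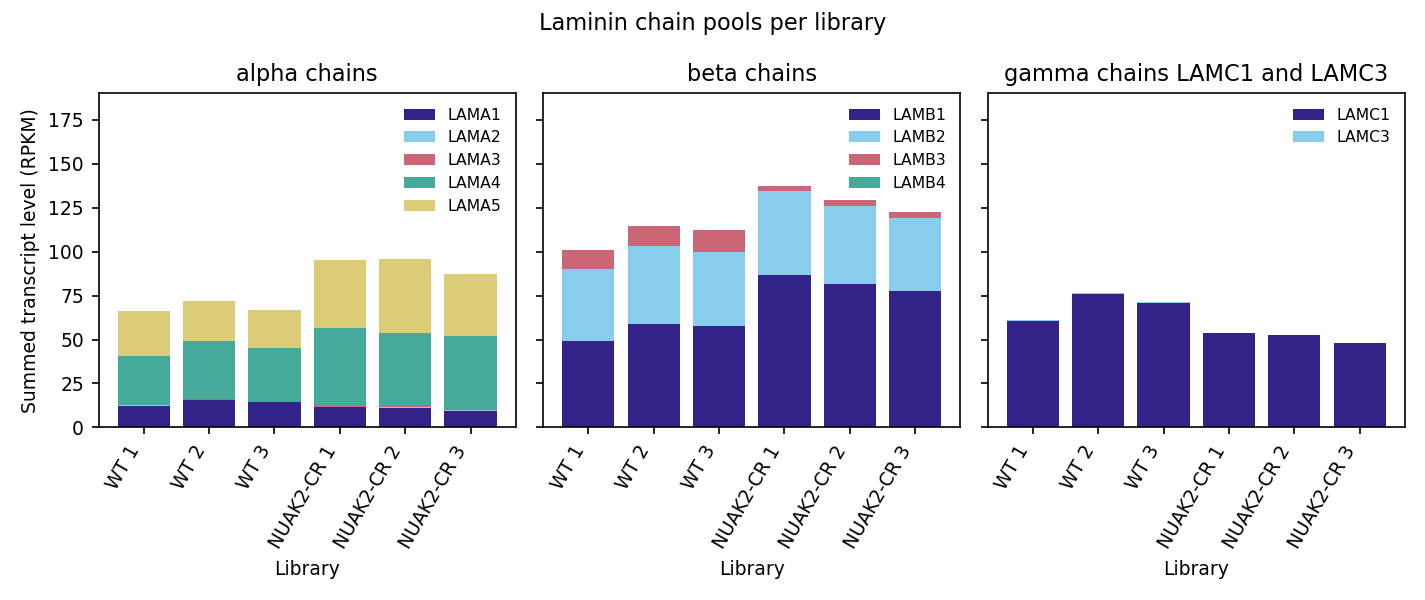
Summed RPKM of the alpha chains, the beta chains and the gamma chains LAMC1 and LAMC3 in each of the 6 libraries, stacked by chain on linear axes that start at 0. The alpha pool is taller in each NUAK2-CR library than in each WT library and the sum of LAMC1 and LAMC3 is shorter, and the LAMB3 layer shrinks.

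Each of 13 laminin trimers formed with LAMC1 or LAMC3 was then listed with its chains. A chain was called present in a group where its mean was at least 1 RPKM and each library held at least 10 counts. By this rule 6 of these trimers had all chains present in both groups, namely laminin-111, laminin-121, laminin-411, laminin-421, laminin-511 and laminin-521. Chains for laminin-211, laminin-221, laminin-213, laminin-311, laminin-321, laminin-423 and laminin-523 were not all present in either group. The number rests on the threshold, since 13 trimers in WT and 10 in NUAK2-CR were listed at a mean of 0.1 RPKM, and laminin-311 and laminin-321 entered in NUAK2-CR when the short LAMA3 transcript length was used.

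The least abundant chain of a trimer sets the level that its transcripts could cap under equal translation, which these data do not measure. The alpha chain was least abundant in laminin-111 and laminin-121, at 14.0 RPKM of LAMA1 in WT and 10.6 in NUAK2-CR. It was also least abundant in laminin-411 and laminin-421, at 30.4 and 42.3 RPKM of LAMA4, although LAMA4 and LAMB2 overlapped in NUAK2-CR, and in laminin-511 and laminin-521, at 23.4 and 38.7 RPKM of LAMA5. LAMA3 was least abundant in laminin-311 and laminin-321, at 0.162 and 0.734 RPKM, and LAMC3 in laminin-213, laminin-423 and laminin-523, at 0.176 and 0.042 RPKM. On MANE Select transcript lengths the least abundant chain was the same in both groups for each of the 13 trimers. With coding lengths LAMB2 took the place of LAMA4 in laminin-421 of NUAK2-CR, whose log2 ratio of the lowest chain was 0.23 in place of 0.48, and LAMA2 or LAMC3 was lowest in laminin-213 of WT, depending on the library. In the alpha pool LAMA5 was 1.70 ± 0.32 of the LAMA1 level in WT (SD, n = 3) and 3.65 ± 0.26 of it in NUAK2-CR, a pair chosen after the values were seen and given as a description. Libraries did not overlap between groups for the lowest chain of 11 of 13 trimers, and laminin-211 and laminin-221, which rest on LAMA2, were the others. The 11 trimers share LAMA1, LAMA3, LAMA4, LAMA5 and LAMC3 as lowest chains, so they repeat the results of these chains. Normalised counts of the groups did not overlap for 61.4% of all tested genes.

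**Figure D4:**
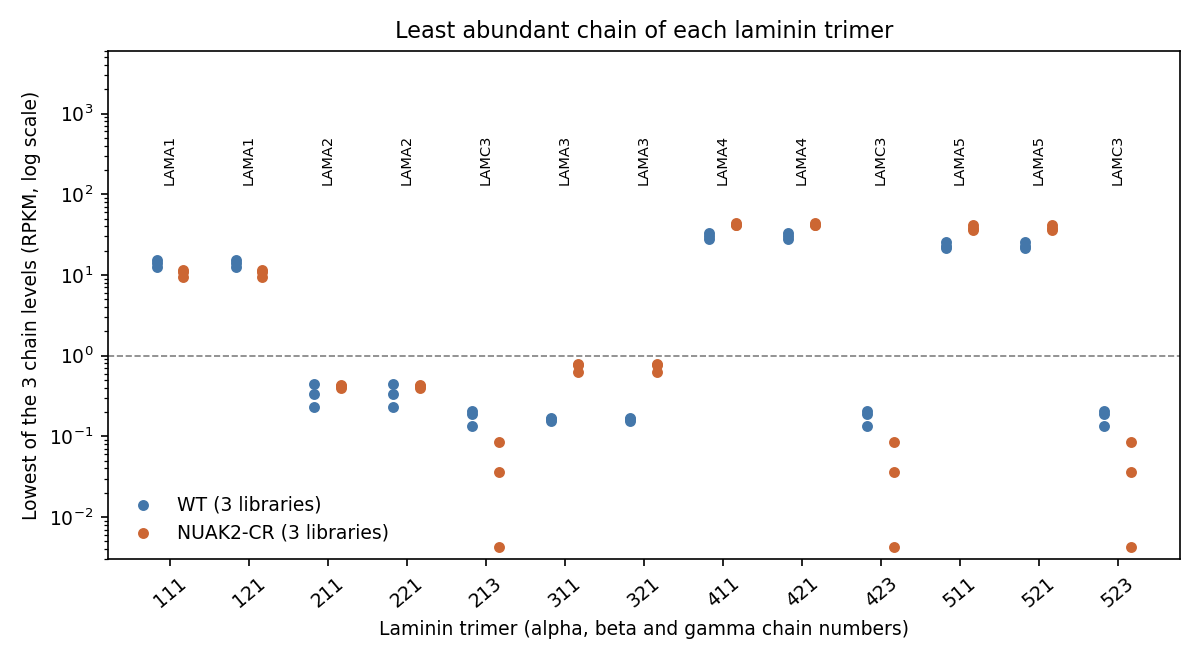
Level of the least abundant chain of each of 13 laminin trimers in RPKM on a log axis, 1 point per library, with the name of that chain above; the dashed line marks 1 RPKM. The 6 trimers above the line are the same in both groups, and the LAMA3 points of laminin-311 and laminin-321 lie just under it in NUAK2-CR.

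Receptors that bind laminins moved in both directions, 7 of 14 higher and 4 lower, where 26.3% of all tested genes were higher and 28.2% lower, with a median log2 fold change of 0.32. BCAM, a receptor of the alpha chain encoded by LAMA5, had 1409 to 1652 normalised counts in WT and 11141 to 11304 in NUAK2-CR, so that the log2 fold change was 2.86 ± 0.08 (SE, adjusted p = 6.27e-11). It was the only DEG of the list. The integrin alpha subunits ITGA6 and ITGA7, both of laminin receptors, rose by 1.68 ± 0.12 and 1.38 ± 0.07 on the log2 scale, and their partner ITGB1 by 0.47 ± 0.11. ITGA3, the subunit of the receptor for LAMA3 and LAMA5 laminins, was the most abundant integrin of the list and went from a mean of 87151 to 47310, a log2 fold change of -0.88 ± 0.07. MCAM, a receptor reported to bind the LAMA4 laminin, was at -0.76 ± 0.08 while LAMA4 was higher. ITGB4, the hemidesmosome partner of ITGA6, was at -0.31 ± 0.09 (adjusted p = 0.0128), although WT libraries from 13872 overlapped NUAK2-CR libraries up to 13996. RPSA at -0.23 completed the 4 lower genes. DAG1, which encodes dystroglycan, had a log2 fold change of 0.18 ± 0.08 (adjusted p = 0.0747) and was not called, though each NUAK2-CR library lay above each WT library.

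Laminin binds dystroglycan through matriglycan, a sugar polymer, and of 11 enzymes of its synthesis analysed here 3 were lower and 8 not called, where 28.2% of all tested genes were lower and 54.5% were called, with a median log2 fold change of -0.02. POMGNT1, a transferase of the sugar core, had means of 7449 and 5060 normalised counts. By log2 fold change POMGNT1 at -0.56, POMT1 at -0.24 and LARGE2 at -0.80 were lower, and 2 enzymes in place of 3 were lower with any library left out, with DESeq2 or with a replicate block.

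Of 23 basement membrane partners, 18 were tested, 9 were higher and 4 lower, against 26.3% and 28.2% of all tested genes, with a median log2 fold change of 0.23. The chief collagen IV chains COL4A1 and COL4A2 were lower, at -0.29 ± 0.06 and -0.47 ± 0.07 (SE), and so was the laminin linker NID1 at -0.27 ± 0.07. The collagen IV chains COL4A5 and COL4A6 were higher, at 0.50 and 0.74. NID2, the relative of NID1, had means of 55.3 and 45.1 normalised counts and was not called. The heparan sulphate proteoglycans HSPG2 (perlecan) and AGRN (agrin) were higher, by 0.82 ± 0.10 and 0.43 ± 0.07 on the log2 scale. COL15A1, a collagen of the outer basement membrane zone, had 9.96, 12.5 and 17.2 normalised counts in WT against 208, 198 and 148 in NUAK2-CR, so that the log2 fold change was 3.83 ± 0.28. PXDN, the peroxidase that crosslinks collagen IV, was higher by 1.40 ± 0.08. TINAGL1, a secreted basement membrane protein, had means of 4558 and 644 normalised counts, a log2 fold change of -2.82 ± 0.09.

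Netrins share domains with the laminin short arms, and of 6 tested 2 were higher and 2 lower, beside the same 26.3% and 28.2%, with a median log2 fold change of 0.56. NTN4, which binds LAMC1 chains and loosens laminin networks, was higher by 1.19 ± 0.15 (SE), and NTNG2 by 1.26 ± 0.37. NTN1 at -0.66 ± 0.09 and NTNG1 at -1.75 ± 0.10 were lower. Of 12 proteases that cut or process laminins or activate such enzymes, 11 were tested, 4 were higher and 7 lower, against 26.3% and 28.2% of all tested genes, with a median of -1.02. With at least 10 counts in every library 3 were lower in place of 7. MMP14, a membrane protease that cleaves laminin chains, had means of 7222 and 32229 normalised counts, a log2 fold change of 2.16 ± 0.08, and MMP2 (1.59), TLL1 (0.86) and PLAU (0.76) were the other higher genes. TLL2 and MMP7 were the 2 named genes with the strongest falls, at -4.40 ± 0.32 and -4.08 ± 0.37, and both rest on few reads in NUAK2-CR, with raw counts of 12, 6 and 6 for TLL2 and 2, 10 and 8 for MMP7. RPSA, LARGE2, COL4A5, COL4A6, NTNG2, MMP2, TLL1 and PLAU were named after their values were seen, to complete short counts or to set beside their relatives.

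**Figure D5:**
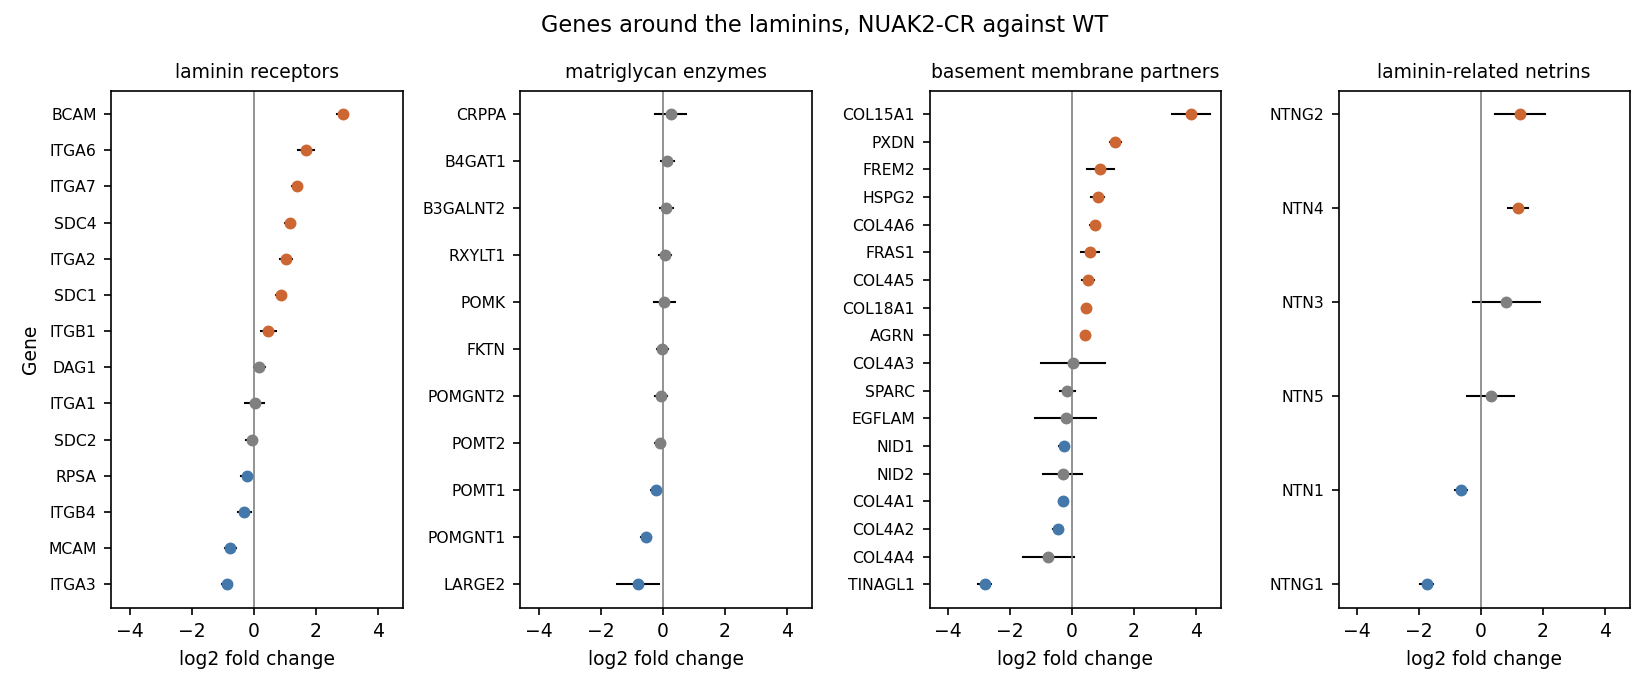
Log2 fold change of NUAK2-CR against WT with 95% intervals for laminin receptors, matriglycan enzymes, basement membrane partners and netrins that were tested (orange higher, blue lower, grey not called). BCAM at 2.86 and COL15A1 at 3.83 stand at the top of their lists, and TINAGL1 at -2.82 stands at the foot of its list.

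Among 12056 genes with enough counts, those whose profile over the 6 libraries was most like LAMA3 were PLXNA4, NPAS2 and PKIB, with a root mean square difference of centred log2 CPM of 0.072, 0.088 and 0.103. Their log2 fold changes were 2.22, 2.13 and 2.22. For LAMC3 the nearest were DTX4, KANK4 and PAPPA, at 0.759, 0.782 and 0.799. The genes compared had a mean of at least 100 normalised counts in the higher group. LAMC3 had means of 49.2 in WT and 11.8 in NUAK2-CR, so genes with counts as low were not compared. LAMA5-AS1, an antisense RNA within LAMA5, had raw counts of 32, 14 and 10 in WT against 1, 13 and 5 in NUAK2-CR, under 1% of those of LAMA5, and the antisense RNA of LAMA4 had at most 2 in any library. LOC101927188, a non-coding RNA within LAMA1, had 13, 8 and 4 in WT and 16, 8 and 10 in NUAK2-CR.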

How the data were processed

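Paired-end reads were trimmed (Trimmomatic) and aligned to hg38 (HISAT2), and the authors deposited featureCounts output as raw counts of reads per gene, per the labels and the study's methods; the annotation and strand setting are not given in the sources used here. Groups came from the sample titles. Of 28395 gene identifiers 27745 were matched to symbols. edgeR 4.0.16 in R 4.3.3 was run on the whole table (filterByExpr, TMM, quasi-likelihood test, prior count 0.125, Benjamini-Hochberg over 14873 genes), after tests on simulated data. Normalised counts were scaled to the mean effective library size. RPKM used MANE Select transcript lengths of GENCODE 44. A call had an adjusted p under 0.05, and a DEG also an absolute log2 fold change over 2. The main fit did not pair libraries by replicate number. Alternatives were DESeq2 1.42.0, RLE and library-size scaling, other filters, a prior count of 2, a replicate block, each library left out, neighbouring genes, other RPKM limits and coding lengths; the short LAMA3 length was added after seeing the data. Some genes, and the trimers that need them, are not reported here. Laminin chains and gene lists were chosen with earlier results of these data known. Named genes were all chains, NUAK2, a fixed set of partners, expressed overlapping genes, the 3 most changed called genes per list with a mean of at least 100 normalised counts in the higher group, and the 3 genes nearest in profile to each called chain beyond 1 on the log2 scale; other cell type markers were named as checks.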

Additional observations from a re-analysis of the deposited data

How the results depend on the processing

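The calls of the 9 chains, 4 higher, 3 lower and 2 not called, were the same in each fit that tested the chain, those with DESeq2, RLE or library-size scaling included. The count of DEGs among them was 1 in place of 2 with at least 10 counts in every library, which removes LAMC3, and with a prior count of 2; it was 1 to 2 when libraries were left out. LAMC3 ranged from -3.11 to -1.49 over these fits and rests on few reads. Relative to its 20 nearest tested genes LAMC1 turned from -0.43 to 0.14, and the cause was not tested. With at least 10 counts in every library 3 proteases were lower in place of 7, since fewer were tested. On leaving out libraries, 2 matriglycan enzymes were lower in place of 3, 1 to 2 netrins were higher (1 without NUAK2-CR replicate 2) and 2 to 5 receptors were lower (2 without NUAK2-CR replicate 3). At a mean of at least 0.1 RPKM, 13 trimers in WT and 10 in NUAK2-CR were listed.

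Deviations from the group mean correlated at 0.04, -0.02 and 0.04 between libraries with the same replicate number. With different numbers they correlated at -0.05 to 0.02. Correlations this small do not show pairing but cannot exclude it, and the main fit did not pair libraries. With a replicate block the chains were again 4 higher, 3 lower and 2 not called, and 3972 genes were higher and 4195 lower, against 3912 and 4195 without it.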
